A study of Homo sapiens with 40 samples.

Results

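LIMA1, PPFIBP2 and RFLNA are 3 genes of the cytoskeleton and cell cortex whose RNA was higher after IL-13 in human bronchial epithelial cells. They were chosen by an earlier result on these libraries, the IL-13 effect, and they are 3 of the 62263 genes in the deposited table. The table lists them as LIMA1 (ENSG00000050405.14, chromosome 12), PPFIBP2 (ENSG00000166387.14, chromosome 11) and RFLNA (ENSG00000178882.15, chromosome 12). All 3 passed the filter on low counts, which left 16735 genes. Because the IL-13 effect selected them, its values are given as a description with no test, and tests are kept for the cell line and the RNA fraction.

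The cells were BEAS-2B, an immortalised bronchial epithelial line, in 2 derivatives labelled control and knockdown. The growth protocol describes them as constitutive lines, shControl and shIGF2BP3, that is 1 line with a control hairpin and 1 line with a hairpin against the RNA-binding protein IGF2BP3. The sample titles instead write siC and siIGF2BP3, the usual short form for small interfering RNAs, and the growth protocol is followed here. All cells were grown in medium with 10% serum and starved in 2% serum, and were then left unstimulated or given 100 ng/ml of IL-13 and harvested after 24 h. RNA was taken either as total RNA (input) or from polyribosomes (polysome), which gave 8 groups of 5 libraries: input and polysome, unstimulated and IL-13, control and knockdown. With 1 line per hairpin, an effect of the hairpin cannot be told apart from any other difference between the lines, and the labels do not say whether replicates were separate cultures, so p-values measure only the spread between these libraries. Input libraries held 14044352 to 40441061 estimated counts and polysome libraries 1816848 to 34082191; the 3 libraries under 5000000 were polysome libraries labelled knockdown (unstimulated replicates 1 and 5, IL-13 replicate 5). IGF2BP3 itself was not called lower in the line labelled knockdown in any of the 4 settings (log2 difference -0.50 ± 0.37 (SE) in unstimulated and -0.45 ± 0.37 in IL-13 input libraries, edgeR adjusted p = 1 for both). In polysome libraries the differences were -0.10 ± 0.39 and -0.15 ± 0.37 (edgeR adjusted p = 0.985 and 0.944). A knockdown was thus not shown in these RNA values, and the labels are used only as names. Of 9 epithelial markers, the keratin genes KRT7, KRT8, KRT17, KRT18 and KRT19 were above 1 CPM in all 40 libraries. KRT5 and TP63 were under 1 CPM in every library, EPCAM reached 1 CPM in 7 of 40 and CDH1 in 8 of 40. All 6 mesenchymal markers were above 1 CPM in all 40 libraries. Of 4 immune markers 3 stayed under 1 CPM in every library and CD14 did not, and of 3 endothelial markers 2 did and CDH5 did not.

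IL-13 is a type 2 cytokine that acts on airway epithelium through the IL-4 receptor alpha chain, JAK kinases and the transcription factor STAT6, which binds palindromic sites that open with TTC and close with GAA. LIMA1 encodes EPLIN, a LIM domain protein that cross-links and stabilises actin filaments and helps tie the cadherin-catenin complex at cell junctions to actin. PPFIBP2 encodes liprin beta 2, a scaffold protein of the liprin family, whose members organise cortical and synaptic protein platforms. RFLNA encodes refilin A, a binding partner of filamin A that turns filamin from a network-forming cross-linker into a bundler of actin filaments. Polyribosomes are mRNAs loaded with several ribosomes, so RNA in that fraction is taken as being translated.

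RefSeq promoter windows (GRCh38.p14) are printed for 3 of the 4 gene starts that hold a match to a STAT-type palindrome, since the 3 genes were higher together after IL-13. Of the table's gene starts, 2 belonged to LIMA1 and 5 to PPFIBP2, and RFLNA had no entry of its own. The windows cover the 250 bases before a start, 5′ to 3′ on the gene's strand, and the capitals mark TTCNNNNGAA, the spacing bound by STAT6, or TTCNNNGAA, the spacing shared by other STAT proteins. Both motifs are palindromes in their fixed letters, so a search of 1 strand covers both.

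LIMA1, chr12:50283521-50283770, minus strand: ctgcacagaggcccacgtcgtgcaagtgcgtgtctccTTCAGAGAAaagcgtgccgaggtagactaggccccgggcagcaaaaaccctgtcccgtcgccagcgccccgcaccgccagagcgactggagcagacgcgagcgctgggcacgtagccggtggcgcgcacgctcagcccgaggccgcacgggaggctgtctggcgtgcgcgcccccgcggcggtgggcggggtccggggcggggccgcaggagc
PPFIBP2, chr11:7577641-7577890, plus strand: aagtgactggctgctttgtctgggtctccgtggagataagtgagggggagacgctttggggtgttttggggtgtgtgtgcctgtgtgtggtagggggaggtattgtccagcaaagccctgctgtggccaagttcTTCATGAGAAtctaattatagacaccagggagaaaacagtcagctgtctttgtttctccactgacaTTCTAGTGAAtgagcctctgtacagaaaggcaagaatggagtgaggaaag
PPFIBP2, chr11:7605484-7605733, plus strand: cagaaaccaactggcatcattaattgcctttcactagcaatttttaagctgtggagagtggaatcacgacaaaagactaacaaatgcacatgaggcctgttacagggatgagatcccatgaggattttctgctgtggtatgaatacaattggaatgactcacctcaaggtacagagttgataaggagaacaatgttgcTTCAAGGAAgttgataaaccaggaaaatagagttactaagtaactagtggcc

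The LIMA1 window is 73.6% G and C and held 1 TTCNNNGAA match, which began 213 bases before the start. The first PPFIBP2 window held 2 TTCNNNNGAA matches, 116 and 50 bases before the start. The second PPFIBP2 window held 1 TTCNNNGAA match, 52 bases before the start, and a further PPFIBP2 start (window chr11:7596939-7597188) held another, 36 bases before it. The other LIMA1 start and the other 2 PPFIBP2 starts, including the most upstream one at 76.0% G and C, held none. Over all 35116 starts in the table, TTCNNNNGAA was found in 5.38%, TTCNNNGAA in 6.57% and either of them in 11.5%. The deposited values are per gene, so they do not say which start was used, and a match is a string of letters and not a measured binding site.

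In bulk RNA a higher level per cell and a larger share of cells that express a gene cannot be told apart. LIMA1 was the most abundant of the 3 per transcript length, as given further down, and had the smallest fold difference between IL-13 and unstimulated libraries. Expression is given as CPM, read counts scaled to the TMM-adjusted size of the library. In input RNA of the control line, LIMA1 measured 119, 173, 154, 122 and 112 CPM unstimulated and 342, 380, 289, 262 and 262 CPM with IL-13 (replicates 1 to 5). In input RNA of the line labelled knockdown, it measured 156, 109, 187, 157 and 119 CPM unstimulated and 240, 299, 410, 395 and 293 CPM with IL-13. Every IL-13 library lay above every unstimulated library of the same line. Polysome RNA gave the same order at a lower level: 51.5, 57.6, 50.9, 21.6 and 26.2 CPM unstimulated against 77.7, 63.2, 78.7, 141 and 114 CPM with IL-13 in the control line. In polysome RNA of the line labelled knockdown, LIMA1 measured 51.9, 55.5, 46.1, 37.2 and 79.2 CPM unstimulated and 137, 82.3, 154, 136 and 83.6 CPM with IL-13. Here the groups came close, since the lowest IL-13 library (82.3 CPM) was just above the highest unstimulated one (79.2 CPM, a library under 5000000 counts).

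PPFIBP2, the liprin scaffold gene, went from a low to a moderate level. In input RNA of the control line it measured 1.54, 4.78, 4.72, 2.65 and 6.68 CPM unstimulated and 45.2, 36.2, 29.9, 36.9 and 27.1 CPM with IL-13. In input RNA of the line labelled knockdown it measured 0.569, 1.67, 3.43, 1.32 and 2.97 CPM unstimulated and 17.5, 22.4, 33.9, 27.1 and 26.8 CPM with IL-13. The IL-13 and unstimulated groups were far apart in both lines. In polysome RNA of the control line the values were 3.03, 2.27, 3.35, 5.28 and 4.35 CPM unstimulated and 25.4, 37.6, 34.4, 33.3 and 24.6 CPM with IL-13. In polysome RNA of the line labelled knockdown they were 0, 2.36, 1.54, 2.11 and 0 CPM unstimulated and 17.8, 26.8, 18.2, 19.3 and 48.5 CPM with IL-13. The 2 libraries at 0 are the unstimulated ones under 5000000 counts, and the 48.5 CPM library is the IL-13 one under 5000000 counts.

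RFLNA, the refilin gene, was close to 0 in unstimulated cells and varied widely between replicates. In input RNA of the control line it measured 2.86, 0, 1.01, 3.9 and 1.91 CPM unstimulated and 9.71, 11.8, 26.4, 15.9 and 17.2 CPM with IL-13. In input RNA of the line labelled knockdown it measured 2.75, 2.96, 0.363, 1.7 and 2.73 CPM unstimulated and 36.6, 23.3, 10.5, 20.4 and 23.5 CPM with IL-13. No IL-13 library overlapped an unstimulated one, although the IL-13 libraries themselves spread from 9.71 to 36.6 CPM over the 2 lines. In polysome RNA the control line gave 4.7, 1.82, 0.682, 1.35 and 1.78 CPM unstimulated and 15.7, 13.6, 13.2, 10.6 and 12.5 CPM with IL-13. The line labelled knockdown gave 2.0, 0.786, 1.48, 1.74 and 0 CPM unstimulated and 12.8, 21.2, 21.2, 21.9 and 13.9 CPM with IL-13. The coefficient of variation of RFLNA within unstimulated groups was 51.8% to 78.8%, against 19.1% to 39.5% for LIMA1 and 32.1% to 94.5% for PPFIBP2.

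**Figure D1:**
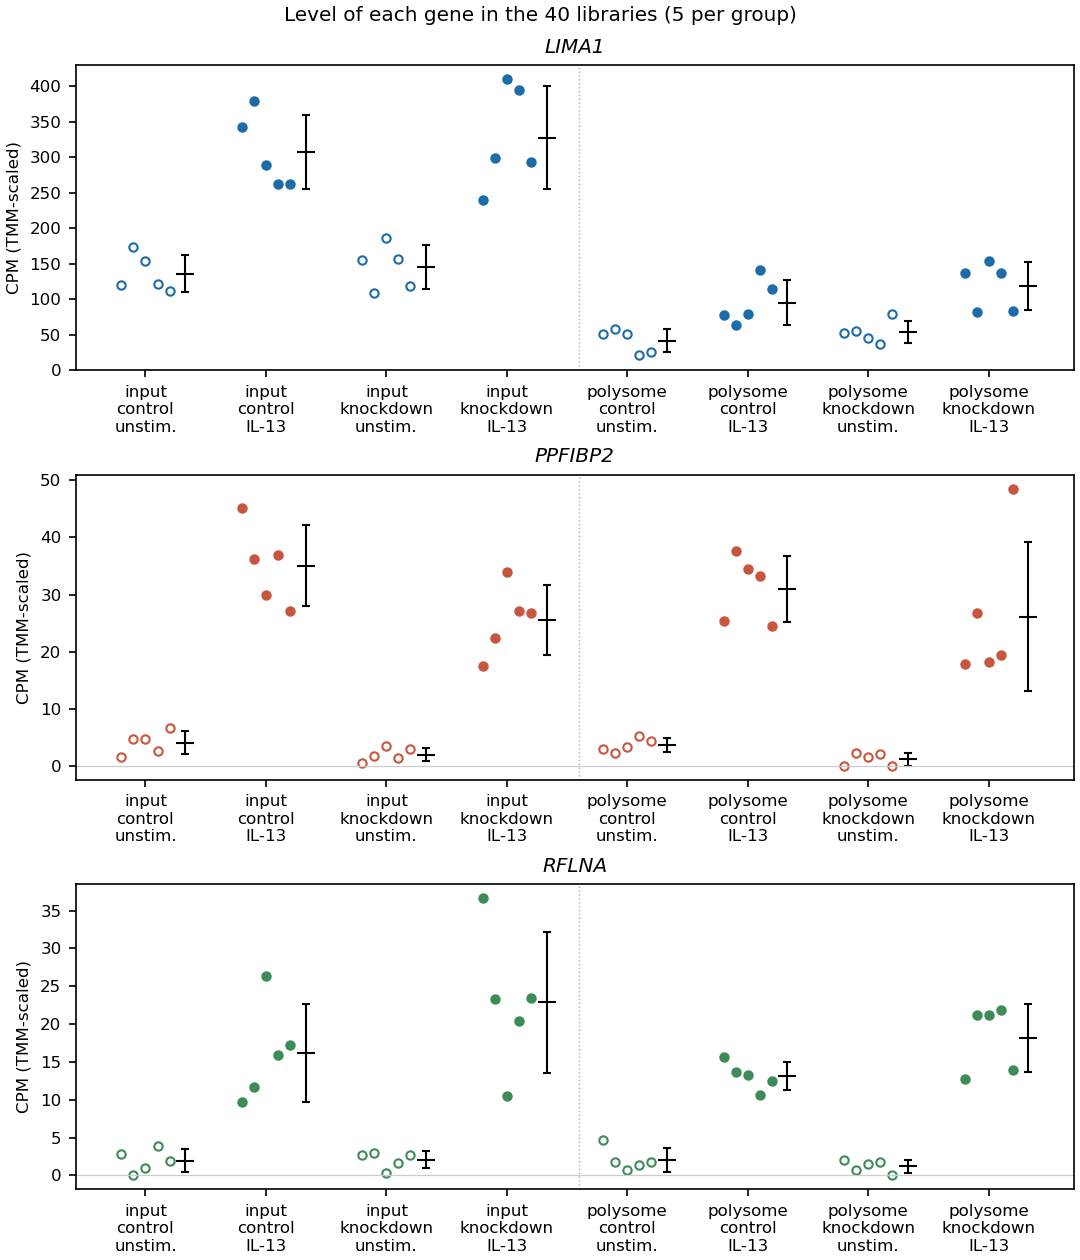
CPM (linear axis, TMM-scaled) of LIMA1, PPFIBP2 and RFLNA in each of the 40 libraries, open circles unstimulated and filled circles IL-13, with replicates 1 to 5 from left to right in a group and the mean ± SD of 5 libraries at the right of it. In each line and fraction the IL-13 libraries lie above the unstimulated ones. LIMA1 is lower in the polysome groups (right of the dotted line) than in the matching input groups (left) with no overlap of libraries. The libraries of PPFIBP2 and RFLNA overlap between the fractions.

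The 3 genes had no overlap between IL-13 and unstimulated libraries in any line and fraction, which is part of what selected them. Among all genes tested, every IL-13 library was higher for 0.263% in control input, 0.586% in knockdown input, 0.317% in control polysome and 0.335% in knockdown polysome. In the edgeR model over all 40 libraries, genes called higher after IL-13 at an adjusted p under 0.05 made up 0.0777%, 0.0837%, 0.0956% and 0.0896% of those tested in the same order. The 3 genes were among them each time, but they were chosen by this effect, so these calls are no test of it. LIMA1 left the calls most often over 76 alternative fits (19 for each setting). It was higher in each but not called in 38 of them, against 14 for RFLNA and 0 for PPFIBP2. For LIMA1 the log2 fold change was 1.17 ± 0.25 (SE) in control input, 1.17 ± 0.25 in knockdown input, 1.19 ± 0.25 in control polysome and 1.15 ± 0.25 in knockdown polysome. These 4 values correspond to 2.23- to 2.29-fold and differ by less than their standard errors. For PPFIBP2 it was 3.11 ± 0.42, 3.68 ± 0.44, 3.08 ± 0.43 and 4.06 ± 0.47 in the same order, or 8.44- to 16.6-fold, and in knockdown polysome it was 3.40 without the libraries under 5000000 counts. For RFLNA it was 3.06 ± 0.58, 3.45 ± 0.59, 2.70 ± 0.59 and 3.80 ± 0.64, or 6.51- to 13.9-fold.

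**Figure D2:**
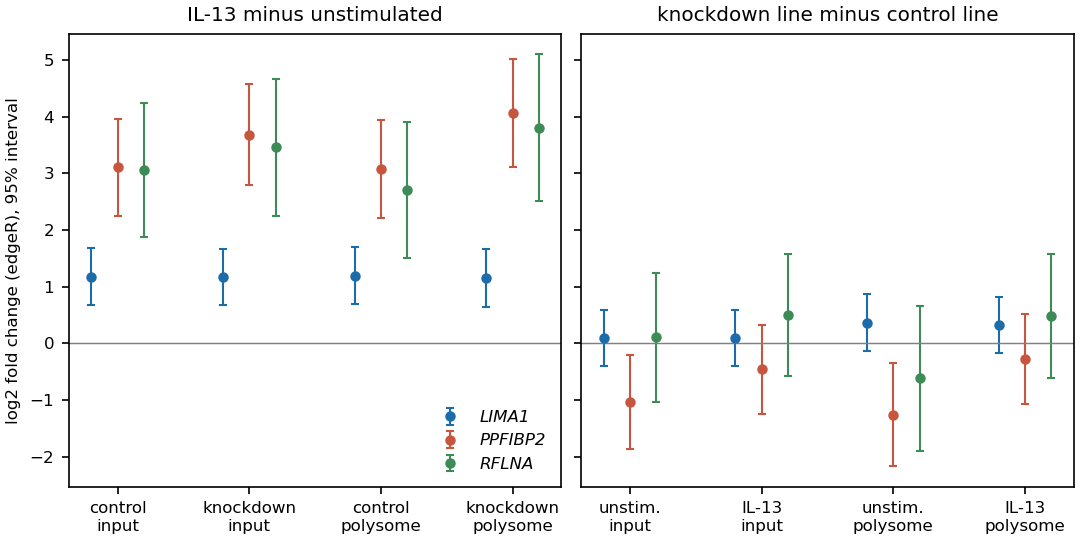
Log2 fold changes with 95% intervals from the edgeR model for IL-13 against unstimulated (left, a description) and for the line labelled knockdown against the control line (right). The IL-13 values of LIMA1 sit between 1.15 and 1.19 in all 4 settings and those of the other 2 genes between 2.70 and 4.06, while in the right panel only the PPFIBP2 intervals of unstimulated cells leave 0, before adjustment over genes.

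Per transcript length LIMA1, the gene with the smallest fold, was the most abundant in each group. In TPM, which divides by transcript length before scaling to the library, LIMA1 in control input went from 50.4 ± 13.6 (SD, n = 5) to 102 ± 25.6, a gain of 51.9 TPM. PPFIBP2 went from 1.63 ± 0.80 to 12.1 ± 2.84 TPM and RFLNA from 0.97 ± 0.71 to 8.17 ± 1.90 TPM, gains of 10.5 and 7.19 TPM. In knockdown input the gains were 65.9 TPM for LIMA1, 8.94 TPM for PPFIBP2 and 11.3 TPM for RFLNA. LIMA1 thus gained the most TPM in input RNA of each line.

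For LIMA1 the 8 groups ordered by mean TPM were knockdown input with IL-13 (119 ± 34.3), control input with IL-13 (102 ± 25.6), knockdown input unstimulated (52.7 ± 13.7) and control input unstimulated (50.4 ± 13.6), followed by knockdown polysome with IL-13 (43.0 ± 15.0), control polysome with IL-13 (33.1 ± 13.7), knockdown polysome unstimulated (19.1 ± 6.51) and control polysome unstimulated (14.0 ± 6.79). Neighbours that differ only in the line overlapped, and the polysome level with IL-13 overlapped the unstimulated input level. For PPFIBP2 the order was control input (12.1 ± 2.84), control polysome (10.4 ± 1.72), knockdown input (9.79 ± 2.94) and knockdown polysome (9.55 ± 4.89) with IL-13, then control input (1.63 ± 0.80), control polysome (1.25 ± 0.32), knockdown input (0.84 ± 0.55) and knockdown polysome (0.43 ± 0.41) unstimulated. For RFLNA it was knockdown input (12.5 ± 5.58), knockdown polysome (10.0 ± 1.58), control input (8.17 ± 1.90) and control polysome (6.67 ± 1.06) with IL-13, then 0.85 to 1.20 TPM in the 4 unstimulated groups. In both of these genes the treatment split the 8 groups, and the libraries of neighbouring groups within a treatment overlapped.

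Comparing the lines asked whether the line labelled knockdown, in which IGF2BP3 was not called lower, had another level of these genes. No member was called in any of the 4 settings by edgeR over all genes tested, and the background was as low: 0.012% of genes were called in unstimulated input, 0% in IL-13 input, 0.0299% in unstimulated polysome and 0.0896% in IL-13 polysome. At an unadjusted p under 0.05, PPFIBP2 passed in 2 settings, unstimulated input and unstimulated polysome, where 2.97% and 7.42% of all genes tested did so. The other genes passed in none, and the DESeq2 Wald test also called none of the 3. PPFIBP2 was lower in the line labelled knockdown in unstimulated input (1.99 ± 1.18 CPM against 4.07 ± 2.01 (SD, n = 5), log2 difference -1.03 ± 0.41 (SE), edgeR adjusted p = 1) and in unstimulated polysome (1.20 ± 1.14 against 3.66 ± 1.17 CPM, -1.26 ± 0.45, edgeR adjusted p = 0.379). Unadjusted, the 2 edgeR p-values were 0.0165 and 0.00783, and neither passed after adjustment. The ranges overlapped in both settings, and among polysome libraries the one labelled knockdown was the higher one in 1 of 25 library pairs. Without the libraries under 5000000 counts, which hold the 2 zeros, the polysome difference was -0.84 with an edgeR adjusted p of 0.785. With IL-13 the PPFIBP2 difference was -0.46 ± 0.39 for input RNA and -0.28 ± 0.39 for polysome RNA (edgeR adjusted p = 1 and 0.888).

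LIMA1 differed between the lines by 0.10 ± 0.24 (SE) in unstimulated and 0.09 ± 0.24 in IL-13 input libraries on the log2 scale, with 95% intervals of -0.40 to 0.59 in both. In polysome libraries the LIMA1 differences were 0.36 ± 0.25 and 0.32 ± 0.25 (edgeR adjusted p = 0.822 and 0.730). RFLNA differed by 0.11 ± 0.56 and 0.50 ± 0.53 in input libraries, and by -0.62 ± 0.63 and 0.48 ± 0.54 in polysome libraries. The RFLNA intervals, such as -1.03 to 1.24 in unstimulated input, leave room for a difference of over 2-fold in either direction.

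The IL-13 effect was then compared between the lines as an interaction term, knockdown minus control. By edgeR no gene was called in input (0%) or in polysome (0%), where 153 and 563 genes had an unadjusted p under 0.05 and DESeq2 called 6 and 25, none of them a member. For LIMA1 the difference of effects was 0.00 ± 0.35 for input RNA and -0.04 ± 0.35 for polysome RNA, with 95% intervals of -0.70 to 0.70 and -0.75 to 0.67. For PPFIBP2 it was 0.58 ± 0.56 and 0.98 ± 0.59, and for RFLNA 0.39 ± 0.77 and 1.10 ± 0.83, all with an edgeR adjusted p of 1. The folds of PPFIBP2 and RFLNA were nominally larger in the line labelled knockdown in both fractions, by less than 2 standard errors each time. In the fit restricted to libraries of at least 5000000 counts the polysome difference was 0.31 for PPFIBP2 and 1.15 for RFLNA, and without replicate 1 of the unstimulated control polysome libraries that of RFLNA was 0.55.

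Of these genes only LIMA1 was called in the fraction comparison. Its level in polysome RNA was lower than in input RNA in all 4 combinations of line and treatment, with no overlap of libraries in any of them. In unstimulated control libraries LIMA1 measured 41.5 ± 16.4 CPM in polysome against 136 ± 26.0 CPM in input (SD, n = 5), a log2 difference of -1.71 ± 0.25 (SE) with an edgeR adjusted p of 7.22e-07. With IL-13 the control line gave -1.69 ± 0.25 (edgeR adjusted p = 8.54e-07). The line labelled knockdown gave -1.44 ± 0.25 unstimulated and -1.46 ± 0.25 with IL-13 (edgeR adjusted p = 1.36e-05 and 9.64e-06). The polysome CPM was thus 0.305 to 0.368 of the input CPM. CPM is relative to each library, so this ratio is not the part of LIMA1 RNA on polysomes. Such a difference was common: genes called lower in polysome were 22.8% of those tested in unstimulated control, 22.6% in IL-13 control, 22% in unstimulated knockdown and 23.3% in IL-13 knockdown libraries, and those with every polysome library lower were 15.6%, 16.2%, 19.7% and 21.5%. The median log2 difference over all genes tested was -0.20, -0.19, -0.20 and -0.23. From 11.8% to 16.0% of all genes tested had a lower value than LIMA1.

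PPFIBP2 did not differ detectably between the fractions, with log2 differences of -0.15 ± 0.41 (SE) and -0.17 ± 0.39 in unstimulated and IL-13 control libraries and -0.37 ± 0.45 and 0.00 ± 0.39 in the line labelled knockdown (edgeR adjusted p = 0.811, 0.763, 0.552 and 0.995). Its 95% intervals ran from -0.97 to 0.68 and from -0.96 to 0.61 in the control line, which do not reach the drop measured for LIMA1 there. In the line labelled knockdown they ran from -1.27 to 0.53 unstimulated and from -0.79 to 0.80 with IL-13. The unstimulated one overlaps the LIMA1 interval of -1.95 to -0.93 in the same libraries. RFLNA gave 0.06 ± 0.58, -0.30 ± 0.54, -0.67 ± 0.61 and -0.32 ± 0.54 in the same order (edgeR adjusted p = 0.952, 0.696, 0.423 and 0.678). Its intervals are wider, and in unstimulated knockdown libraries (-1.91 to 0.57) they include the LIMA1 value. With IL-13 they ran from -1.39 to 0.78 in control and from -1.40 to 0.76 in knockdown libraries. These overlap the LIMA1 intervals of -2.20 to -1.18 and -1.97 to -0.95. The differences between the genes were not tested.

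Transcript length moved with the fraction across genes. A mean length per gene, implied by the ratio of estimated counts to TPM, was used to split the tested genes into 10 equal classes from shortest to longest, and the median polysome-to-input log2 difference in unstimulated control libraries went from 0.44 in class 3 to -1.18 in class 10. LIMA1 and PPFIBP2 both fell in class 7, where the median was -0.26 in unstimulated control libraries and 23.5% of genes were called lower. In that class 10.5% of genes had a lower value than LIMA1 and 54.7% a lower value than PPFIBP2. RFLNA fell in class 5, where the median was 0.15 and 46.1% of genes had a lower value. LIMA1 was called lower in polysome and PPFIBP2 was not, but the 2 genes were not tested against each other. The part of length in the LIMA1 difference was not tested further. A separate fit used an offset for how a gene's implied length varied between libraries. It takes length relative to the gene's own mean, so it cannot address the trend across genes. With it the 4 LIMA1 values were between -1.54 and -1.25, all still called. In unstimulated control libraries PPFIBP2 also moved upward, from -0.15 to -0.03, and RFLNA from 0.06 to 0.23. Relative to its mean over all libraries, the implied length of LIMA1 transcripts was 1.02 ± 0.02 (SD, n = 5) in unstimulated control input and 0.99 ± 0.04 in the matching polysome libraries, and 1.01 ± 0.02 and 0.94 ± 0.05 with IL-13.

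**Figure D3:**
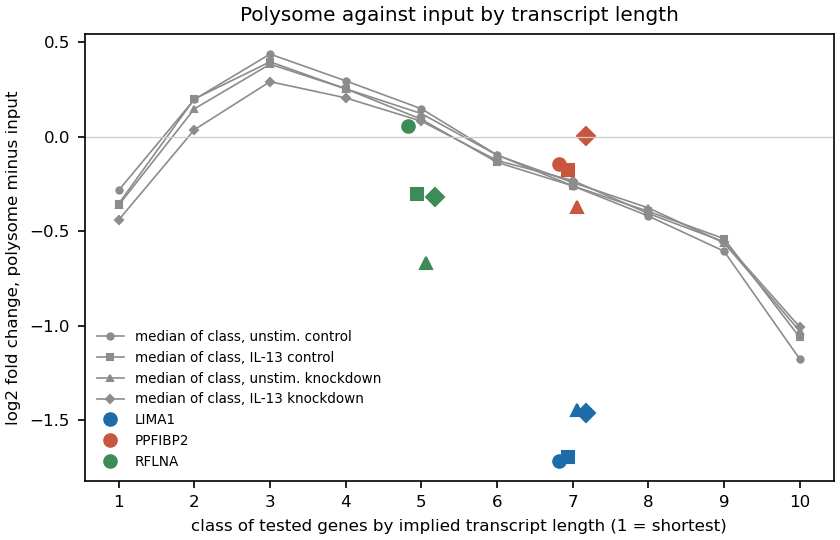
Log2 difference of polysome minus input for genes split into 10 equal classes by implied transcript length, shortest to longest; grey lines join the medians of the classes in the 4 combinations of line and treatment, and coloured markers of the same shapes are LIMA1, PPFIBP2 and RFLNA. LIMA1 lies between -1.71 and -1.44, below the median of its class (-0.26 in unstimulated control), while PPFIBP2 of the same class lies at -0.37 to 0.00.

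The polysome share set the CPM of a polysome library against the sum of that library and the input library of the same number, so that 50% means equal CPM. LIMA1 had shares of 30.1, 25.0, 24.9, 15.0 and 18.9% in unstimulated control pairs and 18.5, 14.3, 21.4, 35.0 and 30.4% with IL-13. In the line labelled knockdown they were 25.0, 33.7, 19.8, 19.2 and 40.0% unstimulated and 36.4, 21.6, 27.3, 25.7 and 22.2% with IL-13. All 20 LIMA1 shares were under 50%, with a mean of 25.2%. For PPFIBP2, 11 of 20 shares were under 50%, with group means of 49.2% ± 16.1 (SD, n = 5), 47.1% ± 6.71, 30.2% ± 30.0 and 49.2% ± 11.4 in unstimulated control, IL-13 control, unstimulated knockdown and IL-13 knockdown pairs. For RFLNA, 12 of 20 were under 50%, with means of 55.3% ± 28.2, 46.2% ± 11.4, 38.8% ± 30.4 and 45.9% ± 15.4. The shares at 0% and 100% come from libraries that counted 0 reads of the gene. Over all genes tested the median of the mean share was 42.9%, with 15.3% of genes lower than LIMA1, 52.0% lower than PPFIBP2 and 57.4% lower than RFLNA. Within a pair, LIMA1 had the lower share than PPFIBP2 in 18 of 20 and than RFLNA in 17 of 20.

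No difference of a share between treatments or lines exceeded the spread between pairs. The IL-13 difference of the LIMA1 share was 1.12 points in control and -0.91 points in knockdown pairs (two-sided exact permutation p = 0.81 and 0.865, adjusted p = 0.944 for both over 12 tests). The largest difference, for PPFIBP2 in unstimulated cells, was -19.0 points between the lines (exact permutation p = 0.246, adjusted 0.944), and it was 1.13 points without the pairs that hold a library under 5000000 counts. The adjusted p-values of the 12 exact permutation tests were between 0.944 and 0.984, where 5 against 5 allows a smallest unadjusted p of 0.00794. A change of effect between the 2 fractions, tested as an interaction by edgeR, was called for no member. Over all genes it was called for 0% for the IL-13 effect in the control line, 0% in the line labelled knockdown, 0% for the knockdown effect unstimulated and 0.00598% with IL-13. Before adjustment 326, 219, 283 and 300 genes had a p under 0.05, and DESeq2 called 20, 5, 10 and 10. The LIMA1 shifts were 0.02 ± 0.35 and -0.02 ± 0.35 (SE) for the IL-13 effect in control and knockdown cells, so the IL-13 fold in polysome RNA was within 0.72 of that in input RNA on the log2 scale at 95% in either line.

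**Figure D4:**
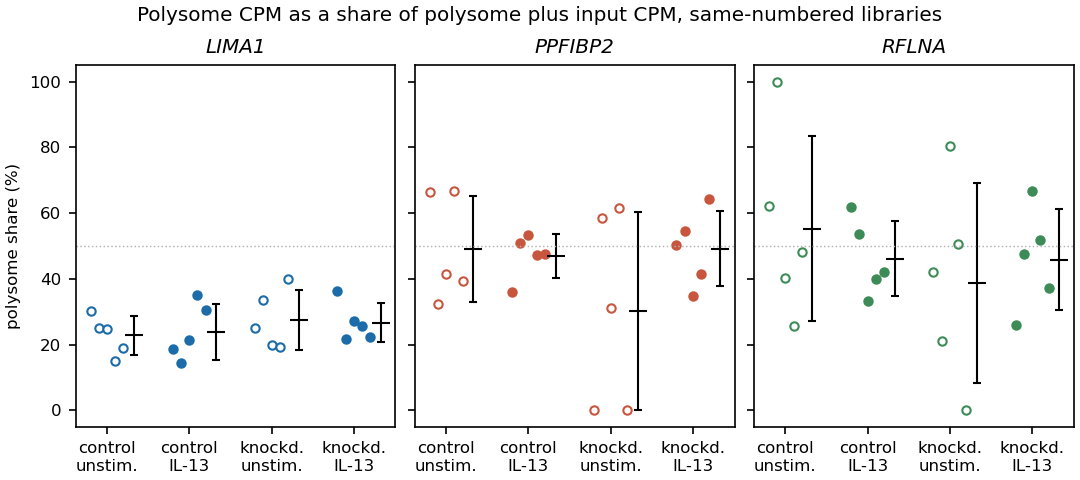
Polysome share in percent, polysome CPM over the sum of polysome and input CPM of same-numbered libraries, for each gene in 4 groups of 5 pairs (open unstimulated, filled IL-13, mean ± SD at the right; the dotted line marks 50%). LIMA1 stays between 14.3% and 40.0% in all groups, and the points at 0% and 100% of the other 2 genes come from libraries with 0 counts.

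None of the genes listed around these 3 in the same structures was called for IL-13, where 0.0777% to 0.0956% of all genes tested were called higher, so that 0 calls in lists of this size is near the background and no result about the lists. In the list of filamins and filamin regulators 6 of 8 genes were tested, and none was called for IL-13 or for the line by edgeR in any of the 8 comparisons. RFLNB, the paralog of RFLNA, had IL-13 log2 fold changes of 0.45 ± 0.24 (SE), 0.67 ± 0.24, 0.49 ± 0.24 and 0.71 ± 0.24 in control input, knockdown input, control polysome and knockdown polysome (edgeR adjusted p = 1, 1, 0.947 and 0.905; unadjusted 0.0645, 0.00732, 0.0446 and 0.00552). RFLNB was much more abundant than RFLNA in unstimulated input RNA, at 48.0 ± 17.7 TPM (SD, n = 5) in the control line. FLNA, which encodes the filamin that refilins bind, measured 139 ± 63.6 TPM unstimulated and 129 ± 61.9 TPM with IL-13 in control input, a log2 fold change of 0.04 ± 0.50. Of the liprin list, 16 of 19 genes were tested and none was called for IL-13 or the line, and PPFIBP1, the paralog of PPFIBP2, had IL-13 values of -0.26 ± 0.34 in control and -0.28 ± 0.34 in knockdown input. The same count of 0 held for the 16 cadherin to actin linkage genes, for 26 of 27 other LIM domain genes that were tested and for the 26 actin and contractile genes. The median IL-13 log2 fold change of the 5 lists lay between -0.13 and 0.10 over the 4 settings, beside -0.02 to 0.00 for all genes tested. At an unadjusted p under 0.05 between 0 and 3 genes of a list passed for IL-13 in any setting. Of all genes tested, 1.03% to 5.14% passed in this way for IL-13. For the line, 3, 3, 6 and 5 of 26 other LIM domain genes passed in unstimulated input, IL-13 input, unstimulated polysome and IL-13 polysome. Of all genes tested 2.97%, 3.0%, 7.42% and 9.92% did so in the same order, smaller shares than in that list. Each of the other lists had 3 at most for the line. The lists were not tested as sets, and nothing particular to them is read from these counts.

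The fraction comparison divided the same lists. In unstimulated control libraries 5 filamin genes were lower in polysome and none higher, with a list median of -2.05, and 10 liprin genes were lower and none higher, with a median of -1.43. Of the cadherin linkage genes, 9 were lower and 4 higher (median -1.48). The other LIM domain genes went the other way, with 12 higher and 4 lower (median 0.74), and so did the actin and contractile genes, with 15 higher and 6 lower (median 1.00). Beside these counts, 17.4% of all genes tested were called higher and 22.8% lower. On the log2 scale the differences were -2.78 for FLNA, -1.79 for RFLNB and -1.51 for FILIP1L. In the liprin list they were -2.43 for PHLDB2, -2.41 for CLASP1, a microtubule plus-end protein, -1.59 for PPFIBP1, -1.22 for PHLDB1 and -0.90 for PPFIA1. Among junction genes, CTNND1 (p120 catenin) was at -2.43 and VCL (vinculin) at -2.23, while ZYX (zyxin) was at 1.09 and TRIP6 at 1.47. Among LIM genes CSRP2 and PDLIM1 were higher, at 1.84 and 1.57, and PDLIM5 and MICAL1 lower, at -1.07 and -0.94. In the contractile list the myosin heavy chain genes MYH9 and MYH10 were at -3.70 and -3.02, and the transgelin genes TAGLN and TAGLN2 were both higher, TAGLN2 by 1.76. LIMA1, at -1.71, thus stood with FLNA, vinculin and p120 catenin on the lower side, and both paralogs, RFLNB and PPFIBP1, were lower in polysome where RFLNA and PPFIBP2 were not called; those differences between paralogs were not tested.

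**Figure D5:**
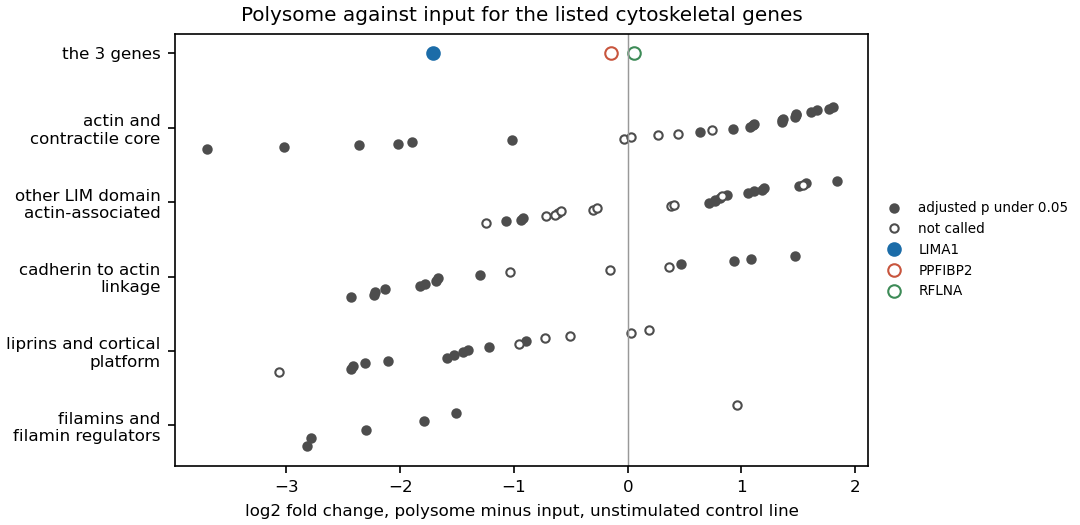
Log2 difference of polysome minus input in unstimulated control libraries for each tested gene of 5 cytoskeletal lists (filled: edgeR adjusted p under 0.05) and for LIMA1, PPFIBP2 and RFLNA in the top row. Filamin and liprin genes lie mostly left of 0 with medians of -2.05 and -1.43, the LIM domain and actin lists mostly right of it with medians of 0.74 and 1.00, and LIMA1 lies at -1.71.

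ZNF664 is a zinc finger gene that overlaps RFLNA on the same strand in the reference annotation, and estimated counts are split between such genes by the authors' quantification, so RFLNA values carry that uncertainty. ZNF664 lay between 45.1 and 161 CPM in all 40 libraries, and its IL-13 log2 fold changes were -0.12, 0.11, 0.08 and 0.02 (edgeR adjusted p = 1 each) where RFLNA had 2.70 to 3.80. An unnamed coding gene of the same span (ENSG00000274874) was at 0 to 2.6 CPM and was not called for IL-13 in any setting. The antisense genes that overlap LIMA1 (ENSG00000257256) and PPFIBP2 (ENSG00000254864) were at 0 counts in all 40 libraries.

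Over the 20 input libraries, the gene patterns most like LIMA1, by Pearson's r of log2(CPM + 1) among 13272 genes of at least 1 CPM, were CISH (0.91), CCL26 (0.90) and HSD3B1 (0.89). For PPFIBP2 they were CISH (0.94), CCL26 (0.93) and SOCS1 (0.92), and for RFLNA SPINT2 (0.97), PPP1R14A (0.94) and CCL26 (0.93). Over the 20 polysome libraries the same pairs had r of 0.70, 0.74 and 0.79 for LIMA1, 0.94, 0.80 and 0.82 for PPFIBP2, and 0.89, 0.85 and 0.88 for RFLNA. Among themselves, LIMA1 and PPFIBP2 had an r of 0.88 over input and 0.55 over polysome libraries, LIMA1 and RFLNA 0.71 and 0.69, and PPFIBP2 and RFLNA 0.78 and 0.89. These values describe libraries that fall into IL-13 and unstimulated groups and share that split, and are given with no test.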

How the data were processed

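RNA of 40 libraries was analysed from the deposited values of 62263 genes: estimated counts, which are not scaled, and TPM, which the authors divided by transcript length and scaled to the library, per the file headers. The TPM summed per library to 82.3% to 85.9% of a full set. Per the submitters' processing notes the tools included Trimmomatic, MultiQC, Salmon and DESeq2; versions, genome build and annotation are not given in the sources used here. Per the labels' protocols, libraries were poly(A)-selected and stranded.

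Estimated counts were rounded, genes were filtered with filterByExpr on the 8 groups (16735 kept, with 99.91% or more of each library's counts), and a quasi-likelihood model with TMM factors and 1 mean per group was fitted over all 40 libraries with edgeR 4.0.16 in R 4.3.3, with 32 residual degrees of freedom. P-values are two-sided, with Benjamini-Hochberg adjustment across the 16735 genes and calls under 0.05; SE is the log2 fold change over the square root of F. The design had assumed counts. Polysome shares were compared with two-sided exact permutation tests (scipy 1.17.1). Likeness used a pseudocount of 1 CPM. Replicates numbered alike mostly did not deviate together (7 of 20 input and polysome pairs correlated over 0.1, -0.33 to 0.54), although 4 of 5 did in unstimulated control. Numbers were not taken as pairs in the main model. The share matches libraries by number only, so its values and permutation tests rest on that matching. No 2 libraries of a group were copies (lowest chi-square per degree of freedom 16.18 over 80 pairs). The procedure was tested on simulated data with 200 changed genes. Of 2-fold changes it recovered 29% for the knockdown effect in unstimulated input and 30.5% for polysome against input in unstimulated control. For the line difference of the IL-13 effect in polysome it recovered 3.5%, and for the polysome shift of the knockdown effect with IL-13 8.5%. At 4-fold these were 67.5%, 67.5%, 51% and 47%. With fewer changed genes than 200 the adjusted threshold is stricter. The line comparisons here called 0 to 15 genes and the interactions 0 or 1, so recovery in those can be lower than simulated. The percentages are also averages over all genes and not specific to low counts, such as those of RFLNA in unstimulated libraries. An uncalled interaction thus leaves room for a 2-fold change.

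The 3 genes, the lists, the markers and the tests were chosen with earlier results of these data known. Genes named beside the 3 were IGF2BP3, RFLNB, FLNA, PPFIBP1, PPFIA1, up to 5 genes per list called for IL-13 or the line (there were none), the 2 highest and 2 lowest called for polysome against input in unstimulated control libraries, the 3 most alike per gene, and overlapping genes. Another named gene is not reported here, though the list counts include it. Alternatives were DESeq2 size factors, the DESeq2 1.42.0 Wald test, no filter, subsets of libraries, replicate blocks, each library left out, TPM, a pseudocount of 0.1 and, chosen after seeing the data, an offset for transcript length. The length classes were also added after seeing the data.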

Additional observations from a re-analysis of the deposited data

Results flagged for a closer look

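Over 36 group values (CPM of the 3 genes in 8 groups, and polysome shares in 4 groups), 1 library stood far from the other 4 of its group: RFLNA in unstimulated control polysome RNA, where replicate 1 measured 4.70 CPM and the other 4 between 0.682 and 1.82 CPM. Chance flags about 1.8 of 36 such values. Without that library and the input library of the same number, the RFLNA difference of polysome minus input in unstimulated control libraries was -0.31 in place of 0.06.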

How the results depend on the processing

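None of the 42 tested effects and 12 share differences of the 3 genes crossed the threshold under any alternative. The 12 IL-13 effects kept their direction throughout and moved by 0.10 to 0.66: LIMA1 1.01 to 1.51, PPFIBP2 2.90 to 4.31 and RFLNA 2.46 to 3.97 over all settings. Each moved by less than the SD of log2(CPM + 0.5) between libraries of the 2 groups (0.253 to 0.998). That SD is of single libraries, so it is a wide measure for a group difference. In knockdown polysome LIMA1 and PPFIBP2 moved by more than their SE, 0.36 against 0.25 and 0.66 against 0.47. The other effects moved by less than their SE. As selection values they were less stable: LIMA1 was not called in 38 of 76 alternative fits, 26 of them with 1 library left out, and RFLNA in 14. The LIMA1 polysome difference stayed called, between -1.88 and -1.19, with a highest adjusted p of 0.000569. PPFIBP2 in the line labelled knockdown stayed uncalled under each alternative. The sign changes were all in values that were never called.

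Replicate numbers shared only a number, and with the number as a replicate block the LIMA1 polysome differences were -1.72, -1.68, -1.42 and -1.47 in unstimulated control, IL-13 control, unstimulated knockdown and IL-13 knockdown libraries, and none of the 42 tested effects changed its call, nor did any of 24 with the pair of same-numbered libraries as block. Among the IL-13 effects this block took LIMA1 out of the calls in 3 of 4 settings (control input, knockdown input and knockdown polysome). The PPFIBP2 polysome difference in IL-13 knockdown libraries was -0.0079 with the number and -0.057 with the pair as block, and the RFLNA shift of the knockdown effect with IL-13 was 0.16 with the number as block.

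That PPFIBP2 difference was -0.022 with no filter, -0.15 in the 37 libraries of at least 5000000 counts and -0.0037 without both libraries of unstimulated control replicate 1. Without those 2 libraries the RFLNA polysome difference in unstimulated control was -0.31, the LIMA1 line difference of the IL-13 effect in input 0.044, and the control-line shifts of the IL-13 effect 0.12 for PPFIBP2 and 0.0029 for RFLNA. With no filter that LIMA1 line difference was 0.00098. In the 37 deeper libraries the PPFIBP2 polysome difference in unstimulated knockdown was 0.12, the LIMA1 line difference in polysome 0.30, the knockdown-line shifts of the IL-13 effect 0.36 (LIMA1) and -0.27 (PPFIBP2), and the shifts of the knockdown effect 0.18 unstimulated and -0.074 with IL-13 for PPFIBP2 and 0.13 with IL-13 for RFLNA. The last was 0.022 with DESeq2 size factors, 0.017 with the DESeq2 Wald test, 0.059 with only the libraries compared and 0.047 with the length offset.

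Without pairs that hold a library under 5000000 counts, the IL-13 share differences in the line labelled knockdown were 3.51 (LIMA1), -5.0 (PPFIBP2) and -2.57 points (RFLNA), and the line differences 1.13 points unstimulated and -1.71 with IL-13 for PPFIBP2 and 1.85 with IL-13 for RFLNA. On TPM, the IL-13 share difference of PPFIBP2 in control was 0.851 and the RFLNA line difference with IL-13 1.12 points, and on DESeq2 size factors the latter was 0.256.

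Leaving out 1 library or pair at a time changed the sign of 22 uncalled values. For LIMA1 the ranges were -0.013 to 0.20 (knockdown effect unstimulated input), -0.10 to 0.11 (line difference of the IL-13 effect input), -0.19 to 0.17 (line difference of the IL-13 effect polysome), -0.17 to 0.17 (polysome shift of IL-13 effect control), -0.13 to 0.19 (polysome shift of IL-13 effect knockdown), -1.64 to 3.53 (share IL-13 difference control), -3.36 to 2.2 (share IL-13 difference knockdown). For PPFIBP2 the ranges were -0.36 to 0.10 (polysome difference unstimulated control), -0.32 to 0.12 (polysome difference IL-13 knockdown), -0.27 to 0.18 (polysome shift of IL-13 effect control), -0.48 to 0.079 (polysome shift of knockdown effect unstimulated), -0.14 to 0.30 (polysome shift of knockdown effect IL-13), -6.42 to 2.18 (share IL-13 difference control), -1.71 to 5.67 (share line difference IL-13). For RFLNA the ranges were -0.22 to 0.54 (knockdown effect unstimulated input), -0.49 to 0.48 (polysome difference unstimulated control), -0.036 to 0.72 (line difference of the IL-13 effect input), -0.79 to 0.18 (polysome shift of IL-13 effect control), -0.27 to 0.21 (polysome shift of knockdown effect IL-13), -16.5 to 2.06 (share IL-13 difference control), -2.61 to 17.5 (share IL-13 difference knockdown), -5.58 to 4.66 (share line difference IL-13).

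The number of genes called over the whole table depended on the test. For the IL-13 effect it was 13, 14, 21 and 16 in control input, knockdown input, control polysome and knockdown polysome, and 8 to 33, 8 to 22, 3 to 61 and 8 to 36 over the alternatives. For the knockdown effect it was 2, 0, 5 and 15 in unstimulated input, IL-13 input, unstimulated polysome and IL-13 polysome, and 0 to 28, 0 to 55, 0 to 90 and 0 to 144; the DESeq2 Wald test gave the highest of each. For polysome against input all stayed within 5454 to 7166. With a pseudocount of 0.1, all 3 of the genes most like LIMA1 and 2 of 3 for PPFIBP2 and RFLNA remained. Low counts limit PPFIBP2 and RFLNA in unstimulated libraries, where single libraries hold 0 counts.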
